A study of Mus musculus with 6 samples.

Results

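Krüppel-like factors are zinc finger transcription factors that bind GC-rich and CACCC sequences through a shared run of zinc fingers at the carboxy terminus. In endothelium, Klf2 and Klf4 are induced by laminar flow through ERK5 and MEF2 factors and hold the cells in a quiescent, anti-thrombotic state. Other members act as repressors through CtBP (Klf3) or Sin3 (Klf9, Klf10, Klf11 and Klf13), and several respond to glucocorticoids, TGF-beta or injury. The 9 factors Klf2, Klf3, Klf4, Klf6, Klf7, Klf9, Klf10, Klf11 and Klf13 were taken by gene name from a table of 49315 genes, and all 9 passed the filter of at least 5 counts in at least 2 samples.

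They were measured by bulk RNA-Seq in bEND.3 cells, a single immortalized line of mouse brain endothelium. One group of 4 samples, labelled Gm39822 knockdown, was transfected with an antisense LNA GapmeR against the long non-coding RNA Gm39822, and a control group of 2 samples received a negative control GapmeR. The methods name more negative controls than were analysed here. Both oligonucleotides were used at 100 nM with a lipid reagent, so transfection is shared by all samples, and the time from transfection to harvest is not given in the sources used here. GapmeRs pair with their target RNA and recruit RNase H through central DNA bases, so that the RNA is cut. The methods give a single catalogue number for the targeting GapmeR. Effects of its sequence and of the loss of Gm39822 therefore cannot be told apart.

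Total counts were 29261988 to 37117934 per sample, and 3 counts, taken as the detection floor, equalled 0.0771 to 0.11 CPM (counts scaled to a common library size by edgeR's TMM method). Gm39822 had 1 to 4 counts in the GapmeR samples and 56 to 61 in the negative controls. In edgeR's quasi-likelihood test, 8268 of 18234 genes (45.3%) passed at an adjusted p-value under 0.05, 4625 of them higher and 3643 lower. The median log2 value over all genes was 0.025. With library size in place of TMM the median was 0.173 and the calls were 6106 higher and 2135 lower, so a fold change below is relative to the bulk of genes. Of 12 endothelial markers all were well counted, with Cdh5 at 2460 CPM in the controls and 1730 CPM after knockdown, while 7 were lower, 1 was higher (Erg) and 4 did not pass. Nothing states that the samples came from separate cultures, so p-values measure the spread between these samples only, and in bulk RNA fewer expressing cells and less RNA per cell cannot be told apart.

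Sequences before the start sites are shown for the 4 factors with the largest falls, because GC and CACCC boxes are the letters that Krüppel-like and Sp factors recognise and MEF2 is the known input to Klf2. Each is the 250 bases before the RefSeq start in mm10 (GRCm38.p6), 5′ to 3′ on the strand of the gene. Capitals mark every match on either strand to the GC box (GGGCGG), the CACCC box (CACCC), the CCAAT box (CCAAT) and the MEF2 element, and neighbouring matches can overlap.
Klf4, chr4:55532476-55532725, reverse strand: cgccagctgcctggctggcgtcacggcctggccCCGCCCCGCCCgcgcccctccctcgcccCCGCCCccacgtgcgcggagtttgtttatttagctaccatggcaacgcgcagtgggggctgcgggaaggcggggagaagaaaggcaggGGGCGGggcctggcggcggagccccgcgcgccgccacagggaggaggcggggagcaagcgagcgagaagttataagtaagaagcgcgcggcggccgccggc
Klf9, chr19:23140976-23141225, forward strand: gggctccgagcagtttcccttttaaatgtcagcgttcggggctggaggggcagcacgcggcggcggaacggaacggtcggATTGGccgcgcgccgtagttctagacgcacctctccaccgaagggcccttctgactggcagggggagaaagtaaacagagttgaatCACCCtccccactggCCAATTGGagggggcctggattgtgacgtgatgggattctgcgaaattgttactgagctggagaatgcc
Klf3, chr5:64803271-64803520, forward strand: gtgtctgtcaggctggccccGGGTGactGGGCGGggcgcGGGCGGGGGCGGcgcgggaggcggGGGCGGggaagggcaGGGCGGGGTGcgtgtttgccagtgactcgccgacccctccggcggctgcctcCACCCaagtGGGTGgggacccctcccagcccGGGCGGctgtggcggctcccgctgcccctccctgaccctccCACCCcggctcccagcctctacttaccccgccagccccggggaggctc
Klf2, chr8:72318812-72319061, forward strand: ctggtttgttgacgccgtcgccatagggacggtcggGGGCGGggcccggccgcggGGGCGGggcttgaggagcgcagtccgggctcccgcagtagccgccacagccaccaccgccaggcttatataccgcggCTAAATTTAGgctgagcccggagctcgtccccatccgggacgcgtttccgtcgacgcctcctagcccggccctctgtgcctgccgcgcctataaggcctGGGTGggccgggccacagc

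The Klf2 window held the only MEF2 element among the 8 members matched, CTAAATTTAG at positions -118 to -109 from the start site, while 2.92% of 32851 RefSeq promoter windows of the same length hold one. The GC box was found in 7 of the 8 members, in all but Klf9, against 32.7% of all windows, with 6 matches in Klf3 and 4 each in Klf4 and Klf11. The CACCC box was found in 5 of 8, against 52% of all windows, and the CCAAT box in 4 of 8 (Klf6, Klf9, Klf11 and Klf13), against 33.8%. The windows of the members were 59.2% to 78.4% G and C, above the median of 52.4% over all windows, so GC-rich letters are more likely in them. Among the factors that fell, the Klf9 window had no GC box and the Klf4 and Klf6 windows no CACCC box. Klf10 had no window in the reference used and is not among the 8 members matched. The Klf7 window, from 64121390 to 64121639 on chromosome 1, lies within the span of Klf7 given below. It is therefore not the sequence before the outermost start of that gene.

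After Gm39822 knockdown, 6 of the 9 Krüppel-like factors were lower and 1 was higher. Klf4, Klf9, Klf3, Klf2, Klf6 and Klf13 fell, by 2.09-fold for Klf4 to 1.24-fold for Klf13, Klf10 rose 1.18-fold, and Klf7 and Klf11 did not pass the test. Over all genes tested, 45.3% passed, 25.4% as higher and 20% as lower, with edgeR's adjusted p-value under 0.05. The median log2 fold change of the 9 was -0.34, against 0.025 over all genes. With a change of at least 1.5-fold required as well, 3 factors remained, all lower (Klf4, Klf9 and Klf3), where 25.4% of all genes passed, 17.8% as higher and 7.62% as lower. Without negative control 2, 4 of the 9 passed, all of them lower, where 5232 of 18044 genes passed. The summed expression of the 9 was 912 to 998 CPM after knockdown and 1286 to 1311 CPM in the controls, and in 8 of the 9 the groups did not overlap, as in 59.2% of all genes.

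**Figure D1:**
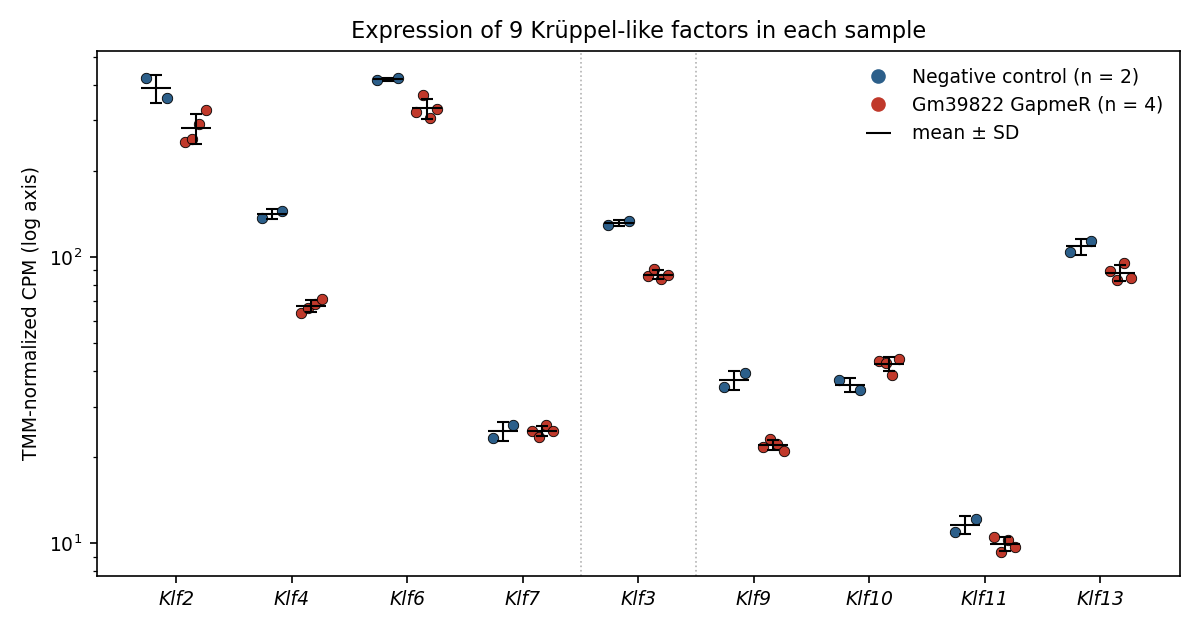
Expression of the 9 factors in each sample as TMM-normalized CPM on a log axis, with blue points for 2 negative controls, red points for 4 GapmeR samples, and black marks for the mean ± SD; dotted lines separate the activating factors (left), Klf3 (middle) and the Sin3-binding factors (right). The red points of Klf4 lie between 63.6 and 71.5 CPM, below both controls, and those of Klf7 overlap the controls.

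Among the activating factors, Klf4, which keeps endothelium anti-inflammatory and is otherwise known as a pluripotency factor, fell the most. It lies on chromosome 4 of mm10 from 55527137 to 55532475, downstream of the first sequence above. The negative controls had 3742 and 4636 counts of Klf4, and GapmeR samples 1 to 4 had 2154, 2578, 2131 and 2310. These equal 63.6, 66.2, 68.7 and 71.5 CPM after knockdown and 137 and 145 CPM in the controls. All GapmeR samples were below both controls, and the 4 spanned a narrow range. Mean expression fell from 141 ± 6.13 CPM in controls (SD, n = 2) to 67.5 ± 3.4 CPM with the GapmeR (SD, n = 4). On the log2 scale this is -1.06 (SE 0.07, 95% interval -1.21 to -0.91, edgeR adjusted p = 4.9e-09). Only 3.64% of the genes tested had a log2 fold change as low or lower, and over the alternatives it was -1.10 to -0.91.

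Klf2, the flow-induced factor that raises thrombomodulin and endothelial nitric oxide synthase, lies on chromosome 8 from 72319062 to 72321654. It was at 252, 258, 291 and 326 CPM in GapmeR samples 1 to 4 and at 421 and 359 CPM in the negative controls. All GapmeR samples were below both controls, with GapmeR 4 nearest to negative control 2. The mean fell from 390 ± 44.1 CPM in controls (SD, n = 2) to 282 ± 34 CPM with the GapmeR (SD, n = 4), which is -0.47 on the log2 scale (SE 0.10, 95% interval -0.69 to -0.25, edgeR adjusted p = 0.0018). Its spread was the largest of the 9 factors in both groups, with a coefficient of variation of 11.3% in the controls and 12.1% after knockdown. Without negative control 1, the log2 fold change was -0.33 and did not pass (adjusted p = 0.073 from edgeR, over a range of 2.2e-08 to 0.073 for all alternatives). The interval of Klf2 lay wholly above that of Klf4.

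Klf2 is also expressed by macrophages, and the summed expression of 12 macrophage markers moved with the group. The sum was 228, 209, 351 and 384 CPM in GapmeR samples 1 to 4 and 177 and 173 CPM in the controls. Cd68 and Lyz2 made up most of it, with means of 88.3 and 65.5 CPM in the controls and 119 and 131 CPM after knockdown. Of the 12 markers tested, 3 were higher (Fcer1g, Mrc1 and Cd68), none was lower and 9 did not pass. The share passing was 25%, against 45.3% of all genes. Cd14 leaned the other way, at -0.48 on the log2 scale, without passing. No marker was at 0 in all samples, and Aif1 had 2 to 10 counts in every sample. Among the 4 GapmeR samples, GapmeR 3 and 4 had the higher sums and the higher Klf2 values. The controls had the lowest sums and the highest Klf2 values. Whether macrophage RNA contributes to the Klf2 values was not tested. With GapmeR 1 and 2 only against both controls, a choice made after seeing the data, Klf2 was at -0.59 on the log2 scale. These are the GapmeR samples with the lower Klf2 values, so a larger fall than with all 4 was built in. In this fit 7 of the 9 factors passed, 6 lower and 1 higher, where 7661 of 17524 genes passed.

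The ratio of Klf2 to Klf4 within a sample does not depend on scaling between samples. In counts per kb of exon, Klf2 was 5.85, 5.74, 6.25 and 6.71 times as abundant as Klf4 in GapmeR samples 1 to 4. In the negative controls it was 4.55 and 3.64 times as abundant, so the ratio was higher in every GapmeR sample than in either control. On the log2 scale, the mean ratio was 2.62 ± 0.10 (SD, n = 4) after knockdown and 2.02 ± 0.23 (SD, n = 2) in the controls, a difference of 0.59 that was 0.43 to 0.75 with each sample left out in turn.

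**Figure D2:**
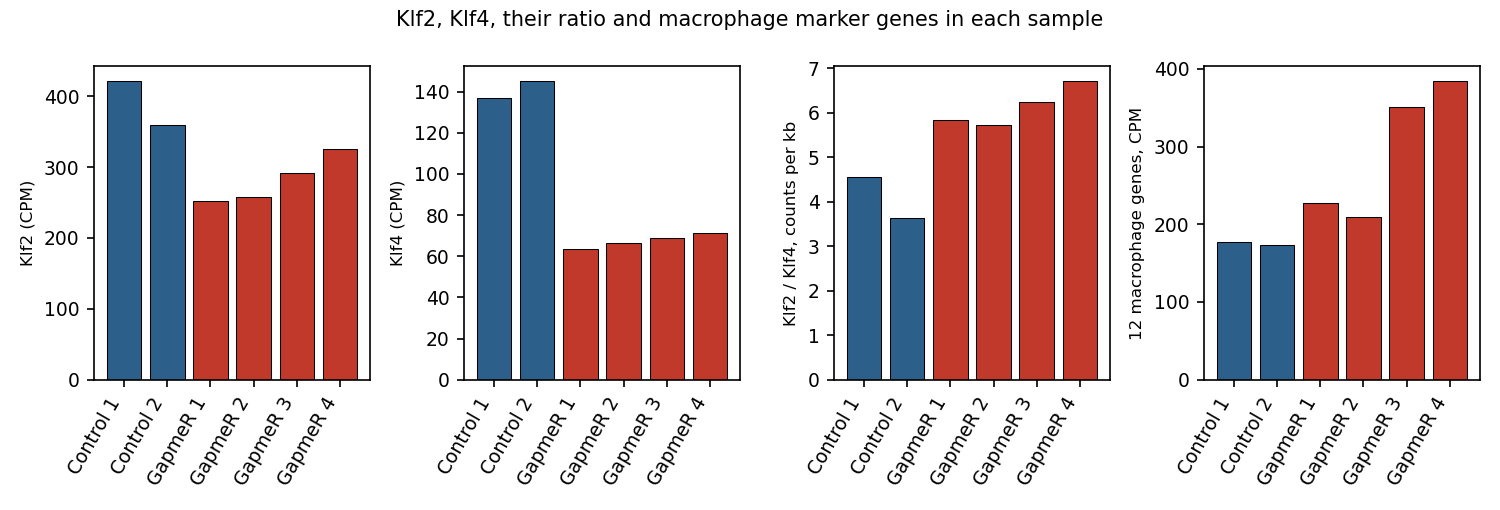
Bars from 0 give, for each of the 6 samples (blue, negative controls; red, GapmeR), the CPM of Klf2 and of Klf4, their ratio in counts per kb of exon, and the summed CPM of 12 macrophage marker genes. The ratio is 5.74 to 6.71 after knockdown and 3.64 to 4.55 in the controls, and the macrophage sum is highest in GapmeR 3 and 4.

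Klf6, an early response gene of vascular injury, lies on chromosome 13 from 5861489 to 5870393. It was at 320, 368, 307 and 329 CPM after knockdown and at 414 and 422 CPM in the controls, with no overlap. It fell from 418 ± 5.61 CPM in controls (SD, n = 2) to 331 ± 26.2 CPM with the GapmeR (SD, n = 4), which is -0.34 on the log2 scale (SE 0.08, edgeR adjusted p = 0.0029). Scaled by library size only, it was -0.19 (edgeR adjusted p = 0.077), and without negative control 2 it was -0.30 (adjusted p = 0.06 from edgeR, over a range of 4.8e-05 to 0.077 for all alternatives). Relative to the median of all genes it was -0.36 under both scalings.

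Klf7, a broadly expressed factor on chromosome 1 from 64029448 to 64122345, was at 24.7, 23.5, 26 and 24.8 CPM after knockdown and at 23.4 and 26 CPM in the controls. The groups overlapped, and the log2 fold change was -0.00 (95% interval -0.18 to 0.18, adjusted p = 1 from edgeR), so a change beyond these bounds was outside the interval. Its sign depended on the scaling, with 0.15 for library size only.

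Klf3, a repressor that works through CtBP, lies on chromosome 5 from 64803521 to 64832901 and follows the sequence with most GC and CACCC matches of those shown. It was at 86.2, 90.9, 83.6 and 86.8 CPM in GapmeR samples 1 to 4 and at 129 and 134 CPM in the negative controls. The 2 groups were well apart, and the spread within each was among the smallest of the 9 factors. Klf3 fell from 131 ± 3.69 CPM in controls (SD, n = 2) to 86.9 ± 3.01 CPM with the GapmeR (SD, n = 4), which is -0.60 on the log2 scale (SE 0.07, edgeR adjusted p = 2.7e-06). It passed under every alternative run, at -0.62 to -0.45. An antisense long non-coding gene, Gm20033, shares 643 bases of exon with it and had 82 to 186 counts, against 2593 to 4277 for Klf3, and the counting is not stated to use strand.

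The Sin3-binding repressors moved in both directions. Klf9, induced by glucocorticoids and tied to the circadian clock, fell the most of them. It lies on chromosome 19 from 23141226 to 23168129. Its expression was 21.7, 23.2, 22.3 and 21.1 CPM after knockdown and 35.1 and 39.3 CPM in the controls. No GapmeR sample came near a control. It fell from 37.2 ± 2.96 CPM in controls (SD, n = 2) to 22.1 ± 0.906 CPM with the GapmeR (SD, n = 4), which is -0.75 on the log2 scale (SE 0.08, edgeR adjusted p = 1.5e-06), and passed under every alternative run, at -0.81 to -0.60.

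Klf13, a Sin3-binding repressor known also as an activator of the chemokine gene Ccl5 in T cells, lies on chromosome 7 from 63886351 to 63938915. It was at 89.7, 83.1, 95 and 84.6 CPM after knockdown and at 104 and 114 CPM in the controls, without overlap. The mean fell from 109 ± 7.4 CPM in controls (SD, n = 2) to 88.1 ± 5.39 CPM with the GapmeR (SD, n = 4), which is -0.31 on the log2 scale (SE 0.08, edgeR adjusted p = 0.0034). It was -0.16 (adjusted p = 0.083 from edgeR) by library size only and -0.22 (adjusted p = 0.13 from edgeR) without negative control 2, and the adjusted p was 0.00038 to 0.13 over all alternatives.

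Klf10 and Klf11 are the TGF-beta-inducible early genes of the family. Klf10, on chromosome 15 from 38291464 to 38300711, was the only one of the 9 factors that rose. It was at 43.4, 42.8, 38.8 and 44.2 CPM after knockdown and at 37.3 and 34.3 CPM in the controls. GapmeR 3 was the lowest of its group but still above both controls. Klf10 rose from 35.8 ± 2.15 CPM in controls (SD, n = 2) to 42.3 ± 2.4 CPM with the GapmeR (SD, n = 4), which is 0.24 on the log2 scale (SE 0.08, edgeR adjusted p = 0.023). The call was lost without GapmeR 1 (0.23, adjusted p = 0.055 from edgeR), without GapmeR 4 (0.22, adjusted p = 0.052) and without negative control 2 (0.20, adjusted p = 0.19), while its adjusted p was 0.0014 by library size only.

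Klf11, on chromosome 12 from 24651371 to 24662782, had the lowest counts of the 9 factors, 300 to 389 per sample. It was at 10.5, 9.35, 10.3 and 9.72 CPM after knockdown and at 11 and 12.2 CPM in the controls. The groups did not overlap, but the log2 fold change of -0.22 (95% interval -0.45 to 0.01, adjusted p = 0.11 from edgeR) did not pass under this or any alternative. For all factors except Klf7, the exact 2-sided permutation test gave 0.0667, the smallest p-value that 4 samples against 2 allow.

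**Figure D3:**
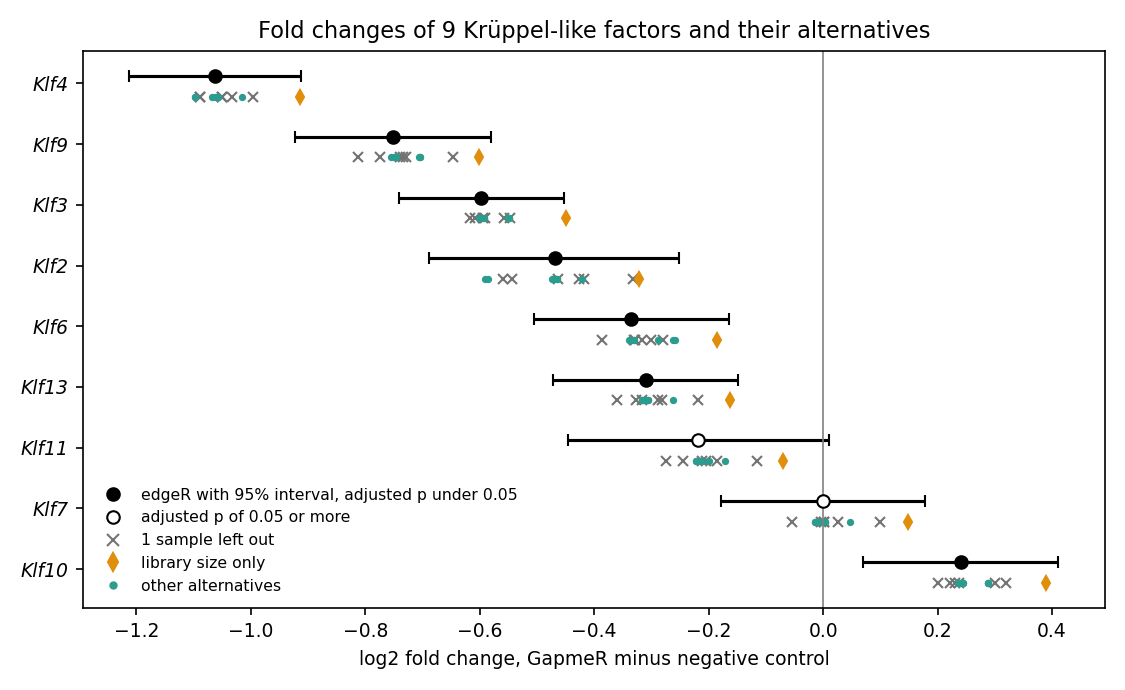
Log2 fold changes of the 9 factors, GapmeR minus negative control, with 95% intervals (filled circles passed edgeR's test, open circles did not), and below each the values with 1 sample left out (crosses), with library size only (diamonds) and under other alternatives (dots). Klf4 lies furthest to the left at -1.06, Klf10 alone lies wholly above 0, and the diamonds sit to the right of the circles for every factor.

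Per length, the order of the factors was nearly the same in both groups. In CPM per kb of exon, Klf2 led with 183 ± 20.6 in the controls (SD, n = 2) and 132 ± 15.9 after knockdown (SD, n = 4). Klf6 followed with 93.5 and 74.1, Klf4 with 44.8 and 21.4, and Klf13 with 14.5 and 11.7. These 4 stood apart from their neighbours in the order in both groups. In the controls Klf3 (8.76) and Klf10 (8.54) overlapped, whereas after knockdown Klf10 (10.1) stood above Klf3 (5.79) in all samples. Klf9 was above Klf7 in the controls (4.52 and 2.92), and they overlapped after knockdown (2.69 and 2.92). Klf11 was lowest in both, with 2.59 and 2.23. The share of Klf4 in the length-scaled total of the 9 was 11.6% and 13.1% in the controls and 7.99% to 8.31% after knockdown, while that of Klf2 overlapped between groups (47.8% and 52.7% against 46.6% to 53.7%). Exon length was the union over all transcripts of an annotation on a newer build than the mm10 used for the counts. Such a union lowers the value of a gene with many transcripts such as Klf3 (14998 bases). It can include exons that were not counted, so the order between genes is approximate.

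The genes whose expression over the 6 samples was most like that of Klf4, among 8869 genes with a mean of at least 10 CPM, were Plaur, Ceacam1 and Tusc3. Plaur encodes the urokinase receptor and fell from 495 to 234 CPM, with a root mean square difference from Klf4 of 0.0313 on the centred log2 scale. The genes most like Klf10 were Rpa1, Cab39l and Spns2, at 0.0201 to 0.0251. With 2 groups this likeness mostly reflects an equal fold change.

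The 8 other Krüppel-like genes were mostly low or did not pass. Klf16, the best counted of them, was at 62 CPM in the controls and 58.2 CPM after knockdown (adjusted p = 0.3 from edgeR), and Klf5 and Klf8 did not pass either. Klf12, Klf15 and Klf17 had too few counts to be tested. Klf14, a single-exon gene linked to lipid metabolism, was counted 59, 52, 28 and 45 times in GapmeR samples 1 to 4 and not at all in the controls. It was at least 12.3-fold higher than the highest control floor of 3 counts. GapmeR samples had counts for 22830 to 23566 genes and controls for 20573 and 21087. A rise from 0 or near it was thus not particular to Klf14. Klf1, the erythroid factor, had 5 to 9 counts after knockdown and 1 in each control, a ratio of 6.32 (95% counting interval 1.6 to 54.6). In all, 2 of the 5 genes tested were higher and none was lower (Klf14 and Klf1). Both reached the count filter only through the GapmeR samples, so for genes this low the filter favours calls as higher. Klf15, left untested, had 4 and 6 counts in the controls and 2, 0, 3 and 2 in GapmeR samples 1 to 4. In edgeR, 2 of the 5 passed (40%, against 45.3% of all genes), and in DESeq2's Wald test 1 did.

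The Sp factors share the zinc fingers of the family and compete for GC boxes. Of 9 genes, 6 were tested, 3 were lower, 1 was higher and 2 did not pass, with a median log2 fold change of -0.22. Among those tested 66.7% passed, against 45.3% of all genes. Sp5, a Wnt target, fell from 13.3 ± 0.747 CPM in controls (SD, n = 2) to 8.14 ± 0.209 CPM with the GapmeR (SD, n = 4), and Sp1, the ubiquitous member, was lower, at -0.20 on the log2 scale (adjusted p = 0.03 from edgeR). Sp9 had 6 counts in each control and 14 to 22 after knockdown. The count of 4 calls was 2 without GapmeR 1, 1 without negative control 1 and 1 without negative control 2.

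The inputs to Klf2 and Klf4 are the kinases MEKK2, MEKK3, MEK5 and ERK5, the MEF2 factors with their histone deacetylases, and the CCM complex, which restrains this pathway. Of 14 genes, 7 were lower, 3 were higher and 4 did not pass, with a median log2 fold change of -0.12. In this list 71.4% passed, against 45.3% of all genes. Krit1, a CCM subunit, fell from 26.3 ± 1.2 CPM in controls (SD, n = 2) to 11.9 ± 2.17 CPM with the GapmeR (SD, n = 4). Its partners Heg1 and Ccm2 also fell, by 1.55-fold and 1.3-fold, whereas Pdcd10 was at 31.5 and 31.2 CPM. Mef2d, one of the MEF2 factors, fell from 169 ± 6.14 CPM to 102 ± 8.36 CPM, Hdac5 fell 1.91-fold and Map3k3 (MEKK3) fell 1.23-fold. Mef2a fell 1.15-fold. Mef2c, at 71 CPM in the controls and 70.7 CPM after knockdown, and Hdac7, at 152 and 149 CPM, did not pass. The 3 genes that rose were Map2k5 (MEK5), Mapk7 (ERK5) and the flow sensor Piezo1, by 1.21-fold, 1.19-fold and 1.21-fold. The 3 higher calls were 2 without GapmeR 1, 1 without GapmeR 4, 2 without negative control 1, 1 without negative control 2 and 1 with the replicate block.

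Of 8 genes known to be raised by Klf2 or Klf4 in endothelium, 3 were lower, 1 was higher and 4 did not pass. The share passing was 50%, against 45.3% of all genes, and the median was -0.15. Thbd, the anticoagulant receptor thrombomodulin, fell from 745 ± 8.9 CPM in controls (SD, n = 2) to 514 ± 26.8 CPM with the GapmeR (SD, n = 4), and S1pr1, a sphingosine-1-phosphate receptor, fell 1.46-fold. Nos3, the endothelial nitric oxide synthase, was at 1830 and 1730 CPM and did not pass (adjusted p = 0.45 from edgeR). Nppc had 10 to 11 counts in the controls and 16 to 40 after knockdown. None of the 13 alternatives gave 4 calls. DESeq2's Wald test, limma-voom and DESeq2 size factors each gave 3.

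Of 10 genes known to be lowered by Klf2 or Klf4, 7 were lower, 1 was higher and 2 did not pass. The share passing was 80%, against 45.3% of all genes, and the median was -0.87. Angpt2, the antagonist of Tie2 signalling, fell from 46.3 ± 6.79 CPM in controls (SD, n = 2) to 12.7 ± 2.44 CPM with the GapmeR (SD, n = 4). The adhesion molecule Vcam1 fell 2.31-fold, the cytokine Il6 2.14-fold and the matrix protein gene Thbs1 1.9-fold. The paper already reports Vcam1, Il6 and other genes of this list as lower in its RNA-Seq of this knockdown. Their calls and the median of the list are therefore not independent of that report.

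Of 10 corepressors and coactivators of these factors, 2 were lower (Sin3a and Ep300), 2 were higher (Sin3b and Hdac3) and 6 did not pass. The share passing was 40%, against 45.3% of all genes, and the median was -0.05. Sin3a and Sin3b, the scaffolds for the Klf9 group of factors, moved in opposite directions, by 1.21-fold down and 1.13-fold up. Ctbp1 and Ctbp2, the partners of Klf3, did not pass. The 4 calls were 2 without GapmeR 4, 2 without negative control 1 and 0 without negative control 2.

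Genes induced by the same stimuli as the factors were compared beside them. Of 15 immediate early genes, 6 were lower, 1 was higher and 8 did not pass, with a median of -0.15. The share passing was 46.7%, near the 45.3% of all genes. Nr4a1, an orphan nuclear receptor, fell from 131 ± 4.69 CPM in controls (SD, n = 2) to 32.9 ± 3.86 CPM with the GapmeR (SD, n = 4). Fos fell 1.7-fold and Junb 1.55-fold, while Egr2 rose 2.63-fold from a low level. Of 8 glucocorticoid-induced genes, the stimulus of Klf9, 5 were lower, none was higher and 3 did not pass, with a median of -0.52. In this list 62.5% passed. Cebpd fell 2.74-fold, Fkbp5 1.76-fold and Per1 1.54-fold. Of 10 TGF-beta-induced genes, the stimulus of Klf10 and Klf11, 5 were lower, 3 were higher and 2 did not pass. Here 80% passed, and the median was -0.26. Bhlhe40 fell 1.68-fold and Tgif1 1.54-fold, while Ltbp2 and Tgfbi rose from under 1 CPM. The 8 calls of that list were 4 without negative control 2, none of them higher, and the 3 higher calls were 1 without GapmeR 4 and 2 without negative control 1.

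**Figure D4:**
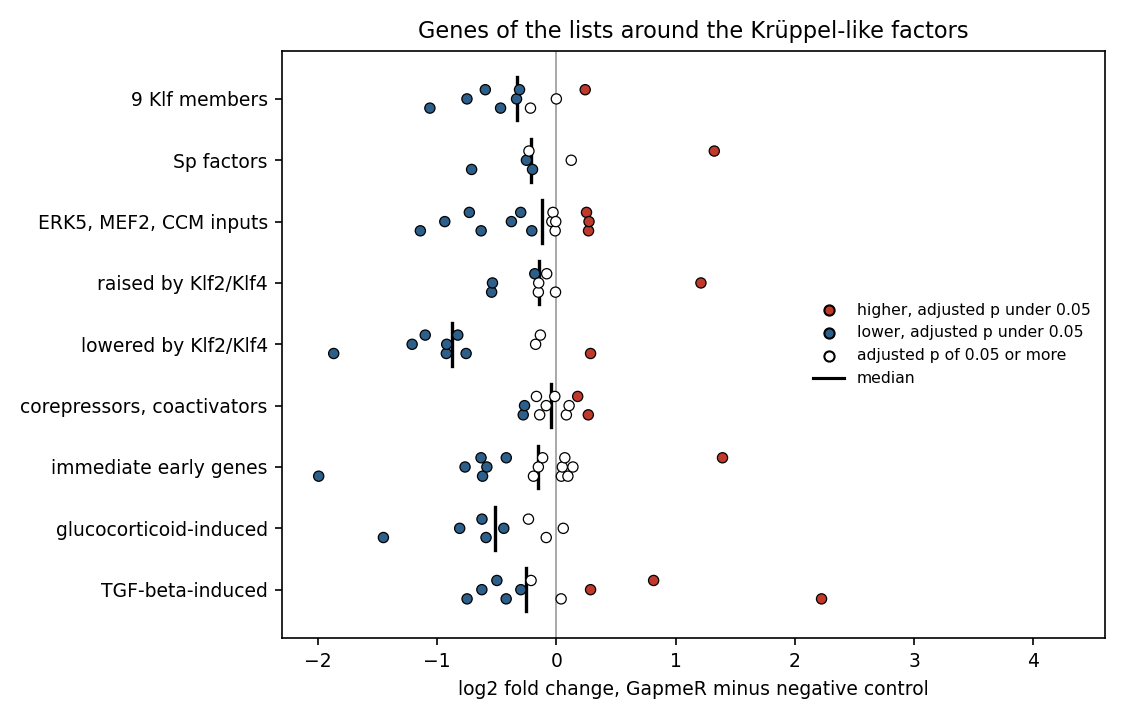
Log2 fold changes (GapmeR minus negative control) of each tested gene of the 9 factors and 8 gene lists, 1 row each, with red points for genes that passed edgeR's test as higher, blue points as lower, white points for those that did not pass, and a black mark for the median of the row. The median of the genes lowered by Klf2 or Klf4 lies furthest to the left at -0.87, and the 9 factors have a median of -0.34.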

How the data were processed

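The authors deposited 1 table of raw read counts per gene, and their processing notes name Trimmomatic 0.36, STAR 2.5.2b and Subread 1.5.2 and the mm10 build. Whether counting used strand is not given in the sources used here. One further column of per-sample counts was not used, since it could not be tied to a sample. The 9 factors and the gene lists were chosen with earlier results of these data known.

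GapmeR samples were compared with negative controls by edgeR 4.0.16 in R 4.3.3 (TMM, quasi-likelihood test with robust fitting), on the 18234 genes that reached 5 counts in 2 or more samples, with Benjamini-Hochberg adjustment over all of them. Alternatives used DESeq2 1.42.0, limma 3.58.1 (voom), other scalings and filters, and each sample left out. Counts of 17708 genes were also simulated with the same group sizes. Of genes changed by 1 log2 unit 74 of 95 were recovered, and of those changed by 2 units 91 of 92. Of 174 calls, 9 were false. Far fewer genes were changed than were called in the data, and all genes shared the same relative spread. Recovery in the data can therefore differ. Named genes were the 9 factors, Gm39822, up to 4 genes with the largest absolute log2 fold change per list, neighbours that overlap a factor, up to 4 other neighbours, and the 3 genes most like the highest and the lowest factor. Other named genes were chosen after their values were seen. One gene counted in the lists is not reported here by name. Likeness used log2(CPM + 0.1). Intervals on counts cover counting error only.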

Additional observations from a re-analysis of the deposited data

Results flagged for a closer look

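Of 61 values tested among the 4 GapmeR samples, 3 had 1 sample far from the others by Dixon's test, which chance gives in about 1 of 20 groups. Col1a1, a fibroblast collagen gene, was at 38 CPM in GapmeR 3 and at 2.21 to 4.58 CPM in the other GapmeR samples. Col1a2 was at 25.2 CPM in GapmeR 3 and at 1.71 to 3.06 CPM in the others. The summed expression of the pericyte and fibroblast markers was 78.1 CPM in GapmeR 3 and 15.8 to 21.9 CPM in the other 5 samples, and 0 of the 9 markers tested passed in edgeR, 0 in DESeq2's Wald test and 1 in limma-voom, with 1 at an unadjusted p-value under 0.05 in each tool. Klf4 in GapmeR 3 was 68.7 CPM, within the range of its group. Gm13748, a long non-coding gene that overlaps Klf7 on the other strand, was at 0.649 CPM in GapmeR 1 and at 0.451 to 0.464 CPM in the others, from 14 to 22 counts.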

How the results depend on the processing

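Klf3, Klf4 and Klf9 stayed lower and called, and Klf11 uncalled, under the 14 alternatives run for each. With each sample left out, the ranges of the log2 fold change were -0.56 to -0.33 for Klf2, -0.39 to -0.28 for Klf6, -0.055 to 0.099 for Klf7, 0.20 to 0.32 for Klf10 and -0.36 to -0.22 for Klf13. By library size only, Klf6 was -0.19 and Klf13 -0.16, both uncalled, because all genes shift upward. Klf7, near 0, was 0.148 by library size only, 0.004 with DESeq2 size factors, 0.004 in DESeq2's Wald test and 0.047 with at least 10 counts in every sample.

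With 1.5-fold required, 4628 genes and 3 of the 9 factors passed. With a sample left out, 5232 to 8719 genes and 4 to 7 factors passed, the lowest counts without negative control 2. Left-out ranges of calls were 1 to 3 for other Klf genes, 1 to 4 for Sp factors, 2 to 3 for genes raised by Klf2 or Klf4, 0 to 3 for corepressors, 4 to 8 for TGF-beta-induced genes, 0 to 1 for pericyte markers and 0 to 2 for neighbouring genes. In DESeq2's Wald test there were 1 other Klf gene, 2 Sp factors, 5 macrophage markers and 1 neighbouring gene. With at least 10 counts in every sample these were 0 other Klf genes, 1 Sp factor and 0 neighbouring genes, with 3, 5 and 6 genes tested in place of 5, 6 and 7. Without the filter, 7 macrophage and 2 pericyte markers passed, limma-voom called 1 pericyte marker, and library size only called 1 neighbouring gene. The cause of these differences was not tested.

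Over 8870 genes, deviations from the group mean correlated at -0.111 between the samples with replicate number 1 and 0.172 for number 2. The 2 controls deviate from their mean by equal and opposite amounts, so these values cannot show whether samples pair. With the replicate block on the 4 samples with these numbers, 7812 genes and 7 of the 9 factors were called and Klf2 was -0.59. The GapmeR samples of this fit are again GapmeR 1 and 2, so a larger fall of Klf2 was built in. In that fit 5 macrophage markers and 1 pericyte marker passed.

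With 2 controls, leaving out either one changed the call of at least 1 factor. The standard error of Klf11 (0.11) was the largest of the 9 factors.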

Other observations

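Of 15 genes in the table that overlap one of the 9 factors or lie within 20 kb of one, 7 had enough counts to be tested. Among those, 1 was higher, 1 was lower and 5 did not pass. Their share passing was 28.6%, against 45.3% of all genes. Cys1, a cilium gene downstream of Klf11, had 6 to 9 counts in each GapmeR sample and 0 and 1 in the controls, a ratio of 13.5 (95% counting interval 2.25 to 550). Gm6969, a pseudogene upstream of Klf11, was lower, at 24.8 ± 1.57 CPM (SD, n = 4) against 29.1 ± 0.853 CPM (SD, n = 2). Without negative control 1 neither passed, and 1 of the 7 passed without GapmeR 1, without GapmeR 3 and without negative control 2. The genes that overlap a factor, Eps15l1 at Klf2, Gm20033 and C230096K16Rik at Klf3 and Gm13748 at Klf7, did not pass. Eps15l1 was at 37.5 CPM after knockdown and 42.1 CPM in the controls (adjusted p = 0.12 from edgeR). Gm10282, upstream of Klf2, was at 15.3 and 14.2 CPM.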
